A study of Mus musculus with 6 samples.

Results

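The ESCRT (endosomal sorting complexes required for transport) and extracellular vesicle genes described here are 38 genes taken by symbol from the deposited count table of 54532 genes. They encode the listed ESCRT subunits, their recycling ATPases and adaptors, 4 tetraspanins, cargo and lipid factors of vesicle formation, and 3 SNARE proteins of vesicle fusion. The table comes from bulk RNA-seq of dorsal root ganglia (DRG), which hold the cell bodies of the sensory neurons that supply skin and other tissues, with 3 libraries from Ash1l+/- mice and 3 from wild-type (WT) littermates. Ash1l encodes a histone methyltransferase acting on lysine 36 of histone H3; Ash1l+/- denotes 1 altered copy, and the sources used here give neither the making of the allele nor the age or sex of the mice. No treatment is named for either group. The series title places the study around release of the microRNA let-7b by neurons, and no vesicle or microRNA was measured in these libraries. Nothing in the labels ties a library to its own mouse, so the p-values reflect the spread among these 6 samples, part of which may be technical. Whole ganglia were used, so neurons, glia, vessels and connective tissue all contribute, and fewer cells of a type and less RNA per cell cannot be told apart.

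ESCRT proteins act in sequence on the endosome membrane. ESCRT-0 gathers ubiquitin-tagged cargo, ESCRT-I and ESCRT-II deform the membrane, ESCRT-III filaments cut the bud into the lumen, and the VPS4 ATPases pull the filaments apart for another round. The endosome filled with such buds, the multivesicular body, either fuses with the lysosome, where the cargo is degraded, or with the plasma membrane, where the buds leave the cell as exosomes. A parallel route uses ceramide made by the neutral sphingomyelinase Smpd3, and another uses syntenin (Sdcbp) with ALIX (Pdcd6ip). Tetraspanins such as CD63, CD9 and CD81 sit in the vesicle membrane and are the usual exosome markers. Hnrnpa2b1 is an RNA-binding protein known to sort microRNAs that carry a GGAG motif into exosomes.

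The mature microRNAs below were searched for that motif, since Hnrnpa2b1 is a member and let-7b is the microRNA named by the study. Sequences are from RefSeq on GRCm38.p6. In let-7b, from chr15:85707325-85707346 on the plus strand, the capitals mark the seed, bases 2 to 8, and the letters GGAG do not occur. In let-7e, from chr17:17830366-17830387 on the plus strand, the capitals mark GGAG.
let-7b-5p: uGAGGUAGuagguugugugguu
let-7e-5p: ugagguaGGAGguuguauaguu
Of 8 let-7 mature names of the 5p arm, 1 holds GGAG, against 238 of 1679 mature names in the table (14.2%). A match is a description of the letters only.

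Promoters of 3 members follow, each the 250 bases before the RefSeq start on GRCm38.p6. Cd81 is the tetraspanin that was lower under both scalings described below, Stam is the only member among the higher ones with a window in the table, and Pdcd6ip holds the only CACGTG. Capitals mark GGGCGG, the GC box bound by Sp1-family factors, in Cd81, and CACGTG, an E-box, in Pdcd6ip. Both motifs were searched on both strands, and they do not overlap each other. The Cd81 window is chr7:143052500-143052749 on the plus strand, the Stam window chr2:14073850-14074099 on the plus strand, and the Pdcd6ip window chr9:113708260-113708509 on the minus strand.
Cd81: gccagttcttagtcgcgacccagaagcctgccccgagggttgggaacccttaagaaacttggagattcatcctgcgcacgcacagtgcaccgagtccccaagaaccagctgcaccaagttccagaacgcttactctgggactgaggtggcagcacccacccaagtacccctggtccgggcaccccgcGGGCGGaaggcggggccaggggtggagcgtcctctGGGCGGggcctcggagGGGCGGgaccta
Stam: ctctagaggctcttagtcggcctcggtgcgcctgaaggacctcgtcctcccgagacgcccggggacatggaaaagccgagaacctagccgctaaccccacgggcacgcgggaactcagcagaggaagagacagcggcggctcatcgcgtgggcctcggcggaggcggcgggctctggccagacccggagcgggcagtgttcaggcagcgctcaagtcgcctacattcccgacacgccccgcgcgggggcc
Pdcd6ip: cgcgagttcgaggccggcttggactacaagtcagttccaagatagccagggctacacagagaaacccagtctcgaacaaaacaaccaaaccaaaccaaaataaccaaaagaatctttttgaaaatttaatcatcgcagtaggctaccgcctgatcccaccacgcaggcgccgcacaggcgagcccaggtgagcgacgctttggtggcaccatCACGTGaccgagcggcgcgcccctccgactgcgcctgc
The GC box occurs 3 times in the Cd81 window and not in that of Stam. Windows were found for 26 of the 38 members, and 13 of them hold the GC box, against 35.4% of 27025 genes. It was in 6 of 7 windows of members that were lower in the 5-library comparison, in 0 of 1 of those higher and in 6 of 17 of those not called. The differences ran with transcript GC, and of the lower members only Cd81 was called under both scalings described below. Whether the motif goes with the calls was not tested. CACGTG was in 1 of 26 windows (3.85%), against 6.86% of genes.

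Total counts ran from 17209294 to 20545722 per library. WT replicate 2 stood apart from the other libraries: its correlation with them on log2 CPM (counts scaled to a common library size) was 0.846 to 0.877, against 0.981 to 0.992 for the other pairs. Counts of called members are therefore given for all 6 libraries and for the 5 without WT replicate 2. Differences of single members are those of the 5 libraries unless said otherwise, and the 6-library values of the main members stand together beside the departures of WT replicate 2. CPM are scaled by TMM factors (trimmed mean of M values), which were 0.759 for WT replicate 2 and 1.05 to 1.07 for the others. Ash1l itself read 60.8, 30.9 and 54.3 CPM in WT replicates 1, 2 and 3 and 66.4, 66.4 and 68.8 CPM in Ash1l+/- replicates 1, 2 and 3. It was thus higher in all Ash1l+/- libraries than in any WT library, as were 19.2% of all genes. The difference was 0.46 (SE 0.26) on the log2 scale (edgeR adjusted p = 0.396), and 0.23 (SE 0.08) without WT replicate 2 (edgeR adjusted p = 0.0593). A two-sided exact permutation test gave p = 0.1, the smallest that 3 against 3 can give. With GC and length trends removed, as described below, Ash1l read -0.061 (SE 0.121, edgeR adjusted p = 0.792) in 6 libraries. Without WT replicate 2 it then read -0.041 (SE 0.075, edgeR adjusted p = 0.81). These counts cannot check the genotype labels, since a whole-gene count does not show whether an allele with an altered part is transcribed. Per-library values below keep the order of replicates 1, 2 and 3, WT first, and all are CPM unless said otherwise.

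With all 6 libraries no member passed the test between genotypes, and the smallest adjusted p among them was 0.385. edgeR called 0 of 37 tested members and 0 of 16032 genes (0.0% in either direction, 0.0% higher and 0.0% lower). At an unadjusted p under 0.05 the fit held 4 members, Chmp1a, Chmp6, Cd81 and Cd82, all lower in Ash1l+/-, against 1702 genes (10.6%). DESeq2 called 0 members and 3 genes (0.0105%), limma-voom 0 members (0.0% of genes), and limma-voom with library quality weights 15 members, 4 higher and 11 lower, against 26.1% of genes. Values did not overlap between the 3 Ash1l+/- and the 3 WT libraries in 7 members that were higher (19.2% of all genes were) and in 13 that were lower (19.2% of all genes). The members' median log2 fold change was -0.19, beside 0.00 over all genes. Scaling by library totals in place of TMM moved the all-gene median to 0.13 and the members' median to 0.01.

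Without WT replicate 2, the tetraspanins Cd63, Cd81 and Cd82, the flotillins Flot1 and Flot2, and the ESCRT genes Chmp1a, Chmp6, Mvb12a and Vps37c were lower in Ash1l+/- ganglia, each by 0.23 to 0.41 on the log2 scale. Stam, Vps37a, Vamp7 and the scarce Chmp4c were higher. That makes 13 of 37 members called (35.1%), against 19.8% of 16395 genes. The 4 higher members are 10.8% of the members, against 9.39% of all genes, and the 9 lower ones are 24.3%, against 10.4%. Groups did not overlap in 9 members that were higher (23.9% of all genes) and 14 that were lower (25.3% of all genes). The median over the members was -0.01, beside 0.00 over all genes. Many of these calls rest on few libraries, among the members as among all genes. Without WT replicate 1 as well, 2 members were called (5.41%, against 4.67% of genes), and without WT replicate 3, 8 members (21.6%, against 15.1%). Leaving out Ash1l+/- replicate 1 gave 17 members (45.9%, against 26.0% of genes), replicate 2 gave 4 (10.8%, against 11.4%) and replicate 3 gave 5 (13.5%, against 13.0%).

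The direction of a member's difference ran with the GC content of its transcript. Spearman's rho between the 5-library log2 fold change and GC was -0.81 over 36 members and -0.55 over 16380 genes; both are descriptions across genes that share the same libraries. The 3 members with a GC value that were higher had 39.8 to 45.6% GC, and the 9 that were lower had 50.3 to 58.8%. Replicates of 1 genotype differed along GC too, with a rho over members of 0.50 for WT replicate 1 minus WT replicate 3 and 0.62 for Ash1l+/- replicate 1 minus the mean of replicates 2 and 3. When genes were binned by GC, 28 of the 36 members lay inside the middle 50% of the fold changes of all genes in their bin. Mvb12b, Vps25, Chmp2a and Chmp4c lay above that band, and Chmp7, Cd81, Cd82 and Sdcbp below it.

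**Figure D1:**
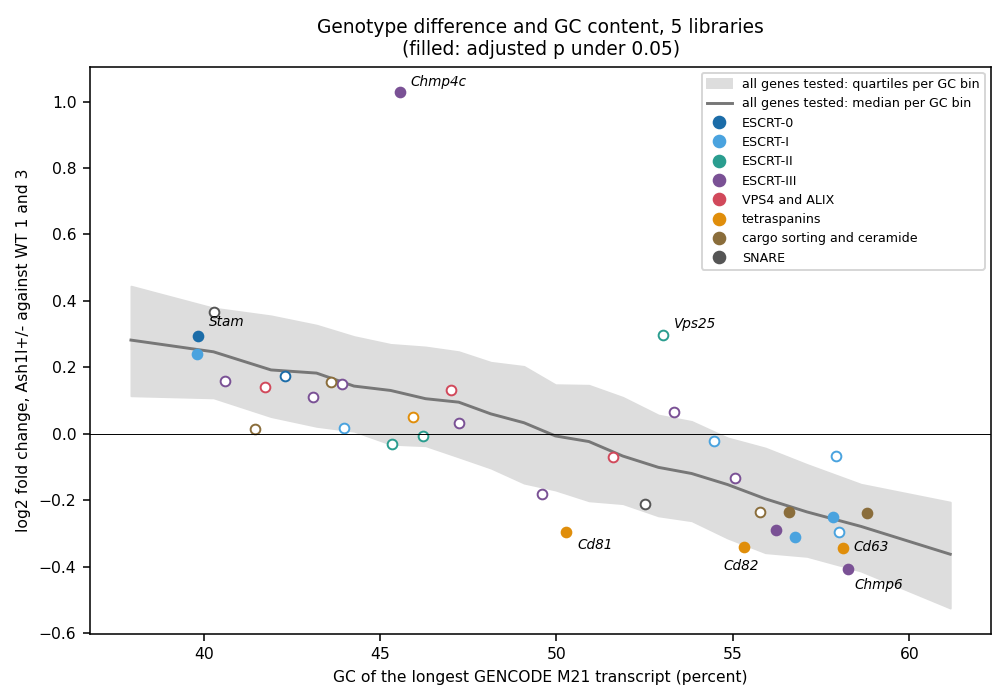
Log2 fold change, Ash1l+/- against WT replicates 1 and 3 (vertical axis), and GC content of the longest transcript in percent (horizontal axis) for 36 members, coloured by role and filled where the adjusted p was under 0.05. The grey line and band are the median and quartiles of all genes tested per GC bin, and 28 of 36 members lie inside the band.

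With each library's trends on GC and gene length removed, 3 members were called in the 5 libraries (8.11%), against 7.04% of genes (2.63% higher and 4.41% lower). They were Cd81 and Sdcbp, lower, and Vamp7, higher; Cd81 and Vamp7 were the members called under both scalings. Of all genes called in the 5-library comparison, 725 (22.3%) were also called in the same direction with trends removed. With 6 libraries and trends removed, 0 members were called (0.0% of genes in either direction, 0.0% higher and 0.0% lower). Vamp7 is placed on an unlocalised scaffold and has no GC value, so its GC trend was set at the median gene.

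**Figure D2:**
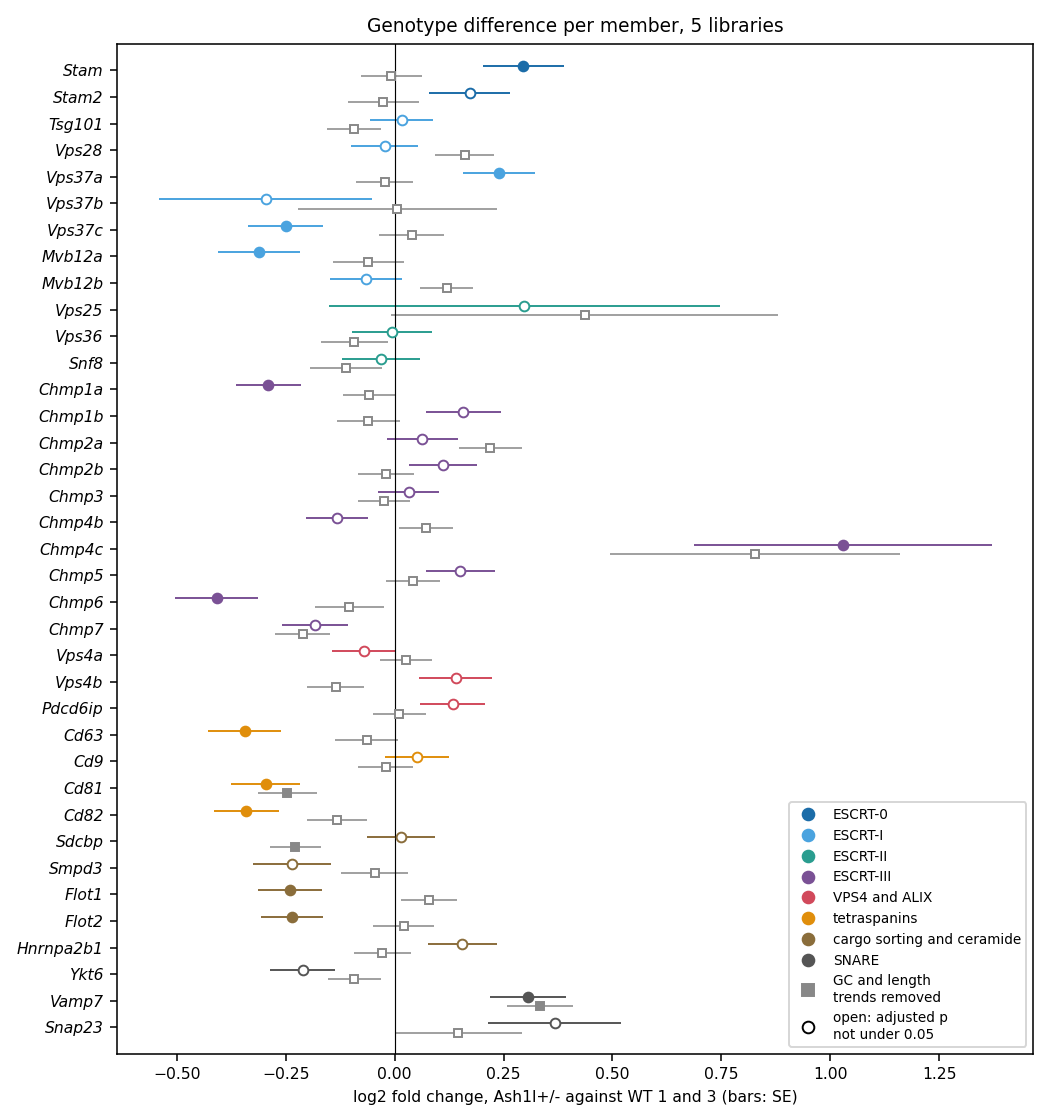
Log2 fold change with SE bars, Ash1l+/- against WT replicates 1 and 3, for the 37 tested members in order of role. Coloured circles are the 5-library comparison and grey squares the same with GC and length trends removed; filled symbols have an adjusted p under 0.05, 13 of the circles and 3 of the squares.

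Levels between genes are compared as CPM per kb of deposited gene length. In WT replicates 1 and 3, Cd9 was the highest at 252, followed by Flot2 at 161, Flot1 at 134, Chmp4b at 126 and Sdcbp at 91.2 CPM per kb. The filament subunits Chmp3, Chmp5 and Chmp2a were at 74.7, 59.0 and 55.2, and most other members lay between 6.77 (Stam2) and 46.9 (Vps4a). The exosome marker Cd63 was at 18.9, below Cd81 at 40.3 and Cd82 at 29.1. At the low end were Snap23 at 1.84, Vps37b at 1.73, Vps25 at 0.496 and Chmp4c at 0.106 CPM per kb. Neighbours in this order could exchange places: Cd81 was above Hnrnpa2b1 in WT (40.3 and 38.3) and below it in Ash1l+/- (32.7 and 42.6).

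**Figure D3:**
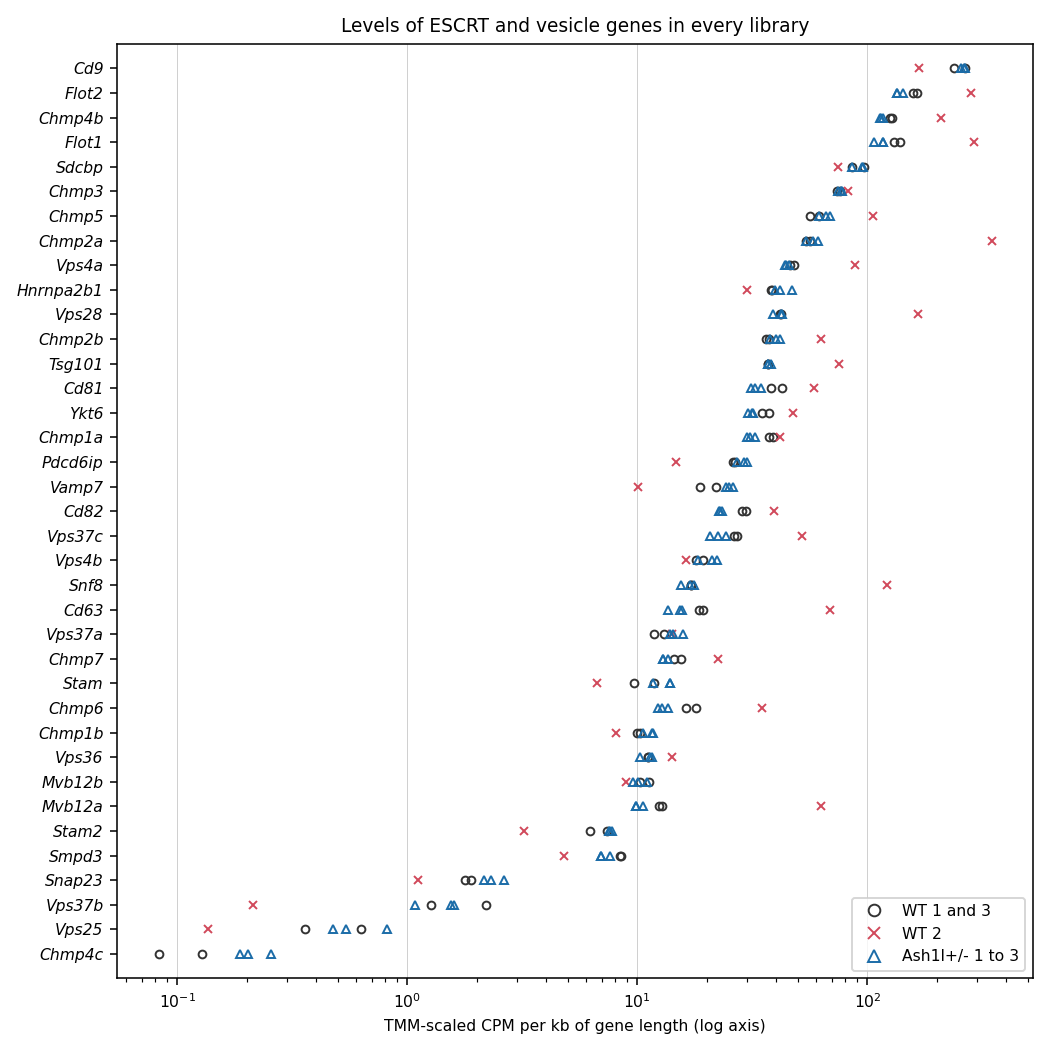
TMM-scaled CPM per kb of gene length (log axis) of 37 members in each library, ordered by level; circles are WT replicates 1 and 3, crosses WT replicate 2 and triangles the Ash1l+/- libraries. Chmp4c had 0 counts in WT replicate 2 and Hgs had 2 counts in all, so these are not drawn; the crosses of Chmp2a and Snf8 lie far right of the other libraries.

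ESCRT-0 is the pair of HRS, encoded by Hgs, and a STAM protein. Hgs had 2 counts in all, in WT replicate 1, and was not tested. The annotation holds 2 models of Hgs on chromosome 11, which share 97.2% and 99.6% of their exonic bases, and the sources used here do not state the counting settings, so its level is uncertain. Stam read 80.8, 56.0 and 98.6 in WT and 98.2, 116 and 116 in Ash1l+/-. Ash1l+/- replicates 2 and 3 were above every WT library, and replicate 1 was level with WT replicate 3. Stam rose by 0.30 (SE 0.09) on the log2 scale in the 5 libraries (edgeR adjusted p = 0.0301) and read -0.01 with trends removed (edgeR adjusted p = 0.964). Its call was lost without WT replicate 1, Ash1l+/- replicate 2 or Ash1l+/- replicate 3, where the adjusted p over the 5 further leave-one-out fits reached 0.465. Stam2, its paralog, read 0.17 (SE 0.09, edgeR adjusted p = 0.206), and WT replicate 2 was lowest of all libraries for both.

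ESCRT-I holds Tsg101 and Vps28, a VPS37 protein and an MVB12 protein. Tsg101, the subunit that binds ubiquitin and recruits ALIX, read 100.5, 206 and 100.6 in WT and 100.5, 100.7 and 103.6 in Ash1l+/-. The libraries other than WT replicate 2 lay together, and their log2 fold change was 0.02 (SE 0.07, edgeR adjusted p = 0.903). Vps28 behaved alike, with -0.02 (SE 0.08) in the 5 libraries and 384 CPM in WT replicate 2 beside 89.8 to 98.3 in the others. Of the 5 variable subunits 3 were called, 1 higher and 2 lower, beside 9.39% and 10.4% of all genes. Differences between subunits were not tested. Vps37a read 75.1, 90.4 and 83.4 in WT and 88.7, 91.3 and 100.5 in Ash1l+/-, and rose by 0.24 (SE 0.08, edgeR adjusted p = 0.0444). Vps37c read 63.5, 125 and 65.5 in WT and 58.6, 49.9 and 54.0 in Ash1l+/-, and fell by 0.25 (SE 0.09, edgeR adjusted p = 0.0463). Mvb12a read 38.1, 194 and 39.2 in WT and 32.6, 30.3 and 30.4 in Ash1l+/-, and fell by 0.31 (SE 0.09, edgeR adjusted p = 0.0241). In Vps37c and Mvb12a every Ash1l+/- library lay below every WT library, as in 19.2% of all genes. With trends removed the 3 read -0.02, 0.04 and -0.06, none called. Leaving out WT replicate 1, Ash1l+/- replicate 2 or Ash1l+/- replicate 3 ended each of these 3 calls, and leaving out WT replicate 3 ended those of Vps37c and Mvb12a, with adjusted p up to 0.417, 0.211 and 0.13 for Vps37a, Vps37c and Mvb12a. DESeq2 did not call Vps37c in the 5 libraries (DESeq2 adjusted p = 0.0624). Mvb12b (-0.07, SE 0.08) and the low Vps37b (-0.30, SE 0.24) were not called. Vps37b shares 42.5% of its exonic bases with Hip1r and Gm37939, and the kit does not mark strand, so its counts are uncertain. The summed level of the 7 genes was 463 to 478 CPM in the 5 libraries and 1078 in WT replicate 2.

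ESCRT-II, which links ESCRT-I to ESCRT-III, held no call. Snf8 read 45.6, 325 and 45.9 in WT and 47.3, 41.4 and 45.4 in Ash1l+/-, so that 5 libraries lay together and WT replicate 2 far above them. Without WT replicate 2, Snf8 read -0.03 (SE 0.09) and Vps36 -0.01 (SE 0.09) on the log2 scale. Vps25 had 3 to 25 counts per library and shares 67.2% of its exonic bases with Ramp2, and its level is uncertain; its log2 fold change of 0.30 was smaller than its SE of 0.45.

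ESCRT-III is the filament. Its central subunit Chmp4b read 253, 425 and 260 in WT and 232, 231 and 238 in Ash1l+/-. The Ash1l+/- libraries were all below the WT ones, with a difference of -0.13 on the log2 scale (SE 0.07) without WT replicate 2 (edgeR adjusted p = 0.197), which did not pass. Chmp6, the nucleator that ESCRT-II contacts, read 43.7, 85.0 and 39.7 in WT and 33.1, 29.9 and 31.0 in Ash1l+/-. It fell by 0.41 (SE 0.10, edgeR adjusted p = 0.00584), or to 0.754 of WT replicates 1 and 3, and the call held in 4 of 5 further leave-one-out fits, with 0.127 without WT replicate 1. Chmp1a, which helps recruit VPS4, read 127, 136 and 122 in WT and 106, 101.3 and 97.7 in Ash1l+/-, and fell by 0.29 (SE 0.08, edgeR adjusted p = 0.0106). Here WT replicate 2 lay near the other WT libraries, and the groups of 3 did not overlap. The Chmp1a call was lost without WT replicate 1 or Ash1l+/- replicate 3 (adjusted p up to 0.121). With trends removed Chmp6 read -0.10 (SE 0.08) and Chmp1a -0.06 (SE 0.06), neither called.

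Chmp4c, an isoform known for the abscission checkpoint of dividing cells, had 17, 0 and 25 counts in WT and 45, 48 and 34 in Ash1l+/-. As CPM it read 0.839, 0 and 1.29 against 2.06, 2.57 and 1.89, so that every Ash1l+/- library was above every WT library. It rose 2.04-fold in the 5 libraries (log2 1.03, SE 0.34, edgeR adjusted p = 0.0393), the largest change among the members and the least precise of those called. The call held in 1 of 5 further leave-one-out fits, without Ash1l+/- replicate 1; the adjusted p reached 0.365 in the others. DESeq2 gave it no adjusted p in the 5 libraries. With trends removed it read 0.83 (SE 0.33, edgeR adjusted p = 0.15). The other 6 genes of ESCRT-III were not called: Chmp1b 0.16, Chmp2a 0.06, Chmp2b 0.11, Chmp3 0.03 and Chmp5 0.15 were positive and Chmp7 -0.18 negative in log2 fold change. Chmp2a read 402 CPM in WT replicate 2 and 62.6 to 71.1 in the others.

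The disassembly factors did not pass. Vps4a, an ATPase of filament recycling, read 120.4, 222 and 116 in WT and 112, 110.5 and 115 in Ash1l+/-. The groups did not overlap, but the difference without WT replicate 2 was -0.07 (SE 0.07, edgeR adjusted p = 0.54), and that of its paralog Vps4b was 0.14 (SE 0.08). Pdcd6ip, the adaptor ALIX, read 180, 102 and 182 in WT and 187, 201 and 207 in Ash1l+/-. Every Ash1l+/- library was above every WT library, but by 0.13 (SE 0.07) in the 5 libraries, which did not pass (edgeR adjusted p = 0.222).

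Of the 4 tetraspanins 3 were lower in the 5 libraries, where 10.4% of all genes were, and the most abundant was not. Cd63 read 70.9, 253 and 68.2 in WT and 56.4, 57.6 and 50.1 in Ash1l+/-. Cd81 read 110.1, 168 and 122 in WT and 99.4, 89.6 and 93.8 in Ash1l+/-. Cd82 read 85.9, 118 and 88.8 in WT and 67.8, 68.4 and 70.4 in Ash1l+/-. In all 3 genes each Ash1l+/- library lay below each WT library, as in 19.2% of all genes. WT replicate 2 was the highest library for each of the 3. Cd63, which cycles between late endosome and surface, fell by 0.34 (SE 0.08, edgeR adjusted p = 0.0078). Cd81, a surface tetraspanin that partners integrins and immunoglobulin-superfamily proteins, fell by 0.30 (SE 0.08, edgeR adjusted p = 0.0125). Cd82, a tetraspanin known as a metastasis suppressor, fell by 0.34 (SE 0.08, edgeR adjusted p = 0.00402). Cd82 was called in all 5 further leave-one-out fits (adjusted p 0.00294 to 0.0326), Cd63 in 4 (0.0956 without WT replicate 1) and Cd81 in 3 (up to 0.127, lost without WT replicate 3 or Ash1l+/- replicate 2). With trends removed, Cd81 read -0.25 (SE 0.07, edgeR adjusted p = 0.0358), Cd82 -0.13 (SE 0.07, edgeR adjusted p = 0.278) and Cd63 -0.06 (SE 0.07, edgeR adjusted p = 0.659).

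Cd9, the fourth tetraspanin and also expressed by Schwann cells, read 487, 343 and 544 in WT and 542, 535 and 522 in Ash1l+/-. It read 0.05 on the log2 scale without WT replicate 2 (SE 0.07, edgeR adjusted p = 0.673), with the Ash1l+/- libraries between WT replicates 1 and 3. Whether Cd9 differed from the other tetraspanins in its response was not tested. With all 6 libraries Cd63 read -1.26 (SE 0.54), the size of which comes with the 253 CPM of WT replicate 2, and Cd81 and Cd82 both -0.50 (SE 0.20 and 0.17); the edgeR adjusted p was 0.385 for each.

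**Figure D4:**
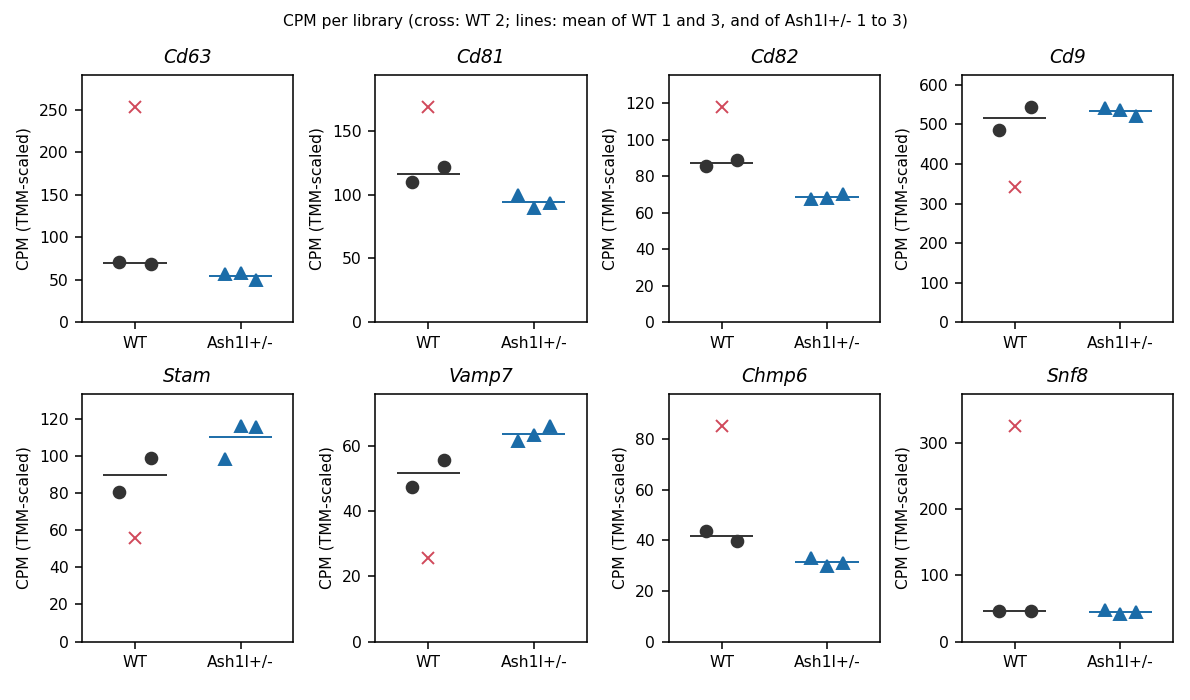
TMM-scaled CPM per library for 8 members, WT at left and Ash1l+/- at right of each panel, with WT replicate 2 as a cross and lines at the mean of WT replicates 1 and 3 and of the 3 Ash1l+/- libraries. Cd63, Cd81, Cd82 and Chmp6 lie lower in Ash1l+/-, Stam and Vamp7 higher than the mean of WT replicates 1 and 3, and Cd9 and Snf8 at the same height apart from WT replicate 2.

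Among the cargo and lipid factors, both flotillins were lower in the 5 libraries, where 10.4% of all genes were. Flot1 read 401, 837 and 376 in WT and 339, 309 and 337 in Ash1l+/-, and Flot2 read 432, 771 and 451 against 367, 367 and 390.5. Their products are partner proteins of cholesterol-rich membrane. The RNA of Flot1 was lower by 0.24 (SE 0.07, edgeR adjusted p = 0.028) and that of Flot2 by 0.23 (SE 0.07, edgeR adjusted p = 0.0251). Neither gene had overlap between the groups, as in 19.2% of all genes. Each call held in 2 of 5 further leave-one-out fits (adjusted p up to 0.245 and 0.128): both were lost without WT replicate 1 or Ash1l+/- replicate 2, Flot1 also without Ash1l+/- replicate 3 and Flot2 without WT replicate 3. With trends removed they read 0.08 (SE 0.06) and 0.02 (SE 0.07). Smpd3, the ceramide-producing sphingomyelinase, read 43.9, 25.1 and 44.3 in WT and 39.6, 36.3 and 36.3 in Ash1l+/-. It lay below WT replicates 1 and 3 but above WT replicate 2, and read -0.23 on the log2 scale without the latter (SE 0.09, edgeR adjusted p = 0.0725).

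Sdcbp, the syntenin scaffold that joins syndecans to ALIX, was the member with the most counts. It read 589, 513 and 670.2 in WT and 589, 661 and 657 in Ash1l+/-, and the groups overlapped. The genotype difference in the 5 libraries was 0.01 (SE 0.08, edgeR adjusted p = 0.915), and it was -0.23 (SE 0.06, edgeR adjusted p = 0.0265) with trends removed, so that the call appeared only with that scaling among those run. Hnrnpa2b1 read 251, 198 and 254 in WT and 260, 273 and 308 in Ash1l+/-. Each Ash1l+/- library was above each WT library, by 0.16 (SE 0.08) in the 5 libraries, which did not pass (edgeR adjusted p = 0.177). With trends removed the difference was -0.03.

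The SNARE proteins fuse the vesicle-bearing compartment with its target membrane. Vamp7, a vesicle SNARE of late endosomes and lysosomes, read 47.5, 25.6 and 55.5 in WT and 61.5, 63.2 and 66.0 in Ash1l+/-. Every Ash1l+/- library was above every WT library. It rose by 0.31 (SE 0.09, edgeR adjusted p = 0.0182) in the 5 libraries and by 0.33 (SE 0.08, edgeR adjusted p = 0.0127) with trends removed. As Vamp7 has no GC value, the latter holds no correction for its own GC. The 5-library call was lost without WT replicate 1, Ash1l+/- replicate 2 or Ash1l+/- replicate 3 (adjusted p up to 0.336). Snap23, a plasma-membrane SNARE, read 0.37 (SE 0.15, edgeR adjusted p = 0.0971) and Ykt6, a lipid-anchored SNARE, -0.21 (SE 0.08, edgeR adjusted p = 0.0522), with no overlap between the groups of 3 in either.

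WT replicate 2 departed from the other WT libraries in most members. Of the 37 tested members, 21 were higher in WT replicate 2 than in any other library and 15 lower than in any other. The same counts were not made over all genes. Since that library stood apart over all genes as well, these counts do not set the members apart. Against the mean of WT replicates 1 and 3, the log2 difference was 2.83 for Snf8, 2.65 for Chmp2a, 2.32 for Mvb12a, 1.99 for Vps28 and 1.86 for Cd63. It was -2.82 for Vps37b and -1.50 for Vps25, both at low counts, then -1.06 for Stam2, -1.01 for Vamp7 and -0.83 for Pdcd6ip. Chmp4c had 0 counts in WT replicate 2, beside 17 and 25 in the other WT libraries. The summed level of the members was 7174 CPM in WT replicate 2 and 4665 to 4992 in the others. Over the members these differences had a Spearman's rho of -0.48 with log2 gene length and 0.36 with GC, beside -0.35 and 0.26 over all genes tested.

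With WT replicate 2 included, most differences changed size, and the edgeR adjusted p was 0.385 or above for every member. Members high in that library read further below 0, as with Snf8 at -1.64 (SE 0.81), Mvb12a at -1.54 (SE 0.68), Vps28 at -1.02 (SE 0.57), Chmp6 at -0.84 (SE 0.32), Flot1 at -0.71 (SE 0.34), Vps37c at -0.64 (SE 0.30) and Flot2 at -0.56 (SE 0.26). Vps4a read -0.44 (SE 0.28), Chmp4b -0.42 (SE 0.24) and Tsg101 -0.42 (SE 0.31), and Chmp1a, close to its own group in that library, -0.34 (SE 0.13). Members low in it read further above 0: Vamp7 0.57 (SE 0.29), Stam 0.49 (SE 0.23), Pdcd6ip 0.36 (SE 0.25), Hnrnpa2b1 0.26 (SE 0.17) and Cd9 0.22 (SE 0.20). The fitted 1.55 (SE 0.88) of Chmp4c includes the 0 counts of WT replicate 2, and the value was 1.03 (SE 0.34) without that library. Vps37a read 0.17 (SE 0.15), Sdcbp 0.10 (SE 0.16) and Smpd3 -0.01 (SE 0.25).

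**Figure D5:**
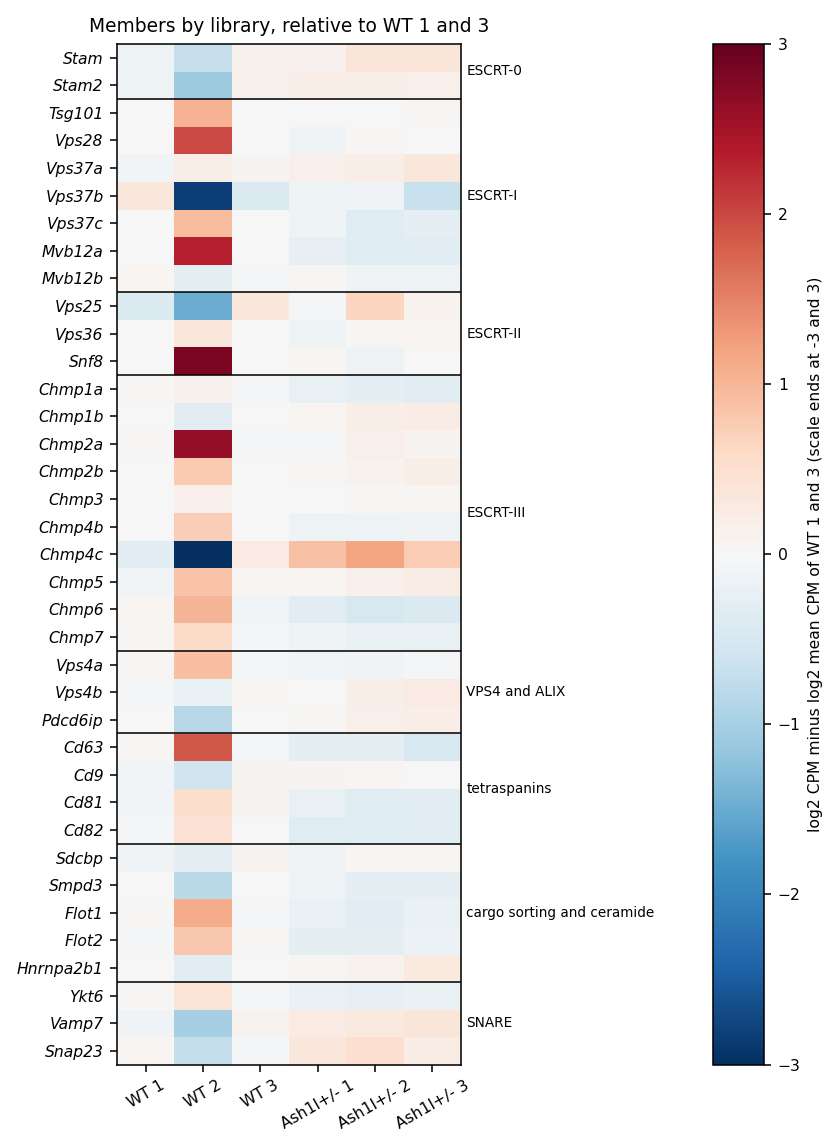
Log2 CPM of 37 members in each library minus the log2 mean CPM of WT replicates 1 and 3, in rows by role; red is higher and blue lower, and the colour scale ends at -3 and 3. The WT replicate 2 column departs most, from 2.83 for Snf8 to below the scale for Chmp4c.

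Other genes of the pathway were read from 55 listed genes, 54 of them tested. In the 5 libraries 8 were higher and 5 lower (24.1% called), against 19.8% of all genes, and with 6 libraries 0 were called. With trends removed 0 were higher and 3 lower, Ist1 (-0.22), Tspan3 (-0.27) and Tspan7 (-0.43), or 5.56% against 7.04% of genes. The list of RNA-binding proteins linked to microRNA loading had 4 of 9 genes higher (44.4%) and 0 lower, against 9.39% and 10.4% of all genes. They were Ssb, the La protein (0.48, SE 0.10, edgeR adjusted p = 0.0028), Fmr1 (0.40, SE 0.09, edgeR adjusted p = 0.00484), Hnrnpu (0.32, SE 0.08, edgeR adjusted p = 0.00773) and Syncrip (0.33, SE 0.08, edgeR adjusted p = 0.00782). Ssb read 64.9, 16.0 and 68.8 in WT and 77.6, 97.6 and 104 in Ash1l+/-. With trends removed Ssb read 0.24, Fmr1 0.07, Hnrnpu -0.01 and Syncrip -0.09, none called.

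The list of other tetraspanins and vesicle surface genes had 0 of 11 tested genes higher and 3 lower (27.3%), against 9.39% and 10.4% of all genes. Tspan4, known from migrasomes, had the smallest p, with 30.1, 23.2 and 27.4 in WT and 19.7, 20.2 and 18.9 in Ash1l+/-, a fall of 0.55 (SE 0.10, edgeR adjusted p = 0.00154); Cd151 fell by 0.27 (SE 0.07, edgeR adjusted p = 0.0128). Of 10 syndecan, lipid and small GTPase factors, 1 was higher and 2 lower, beside 9.39% and 10.4% of all genes: Arrdc1, an arrestin-domain protein that buds vesicles at the surface, fell by 0.51 (SE 0.11, edgeR adjusted p = 0.00302) and the GTPase Arf6 by 0.39 (SE 0.09, edgeR adjusted p = 0.00618). Of 14 Rab and fusion factors 2 were higher (14.3%), with Rab27b, which docks multivesicular bodies at the plasma membrane, at 108, 71.0 and 130 in WT and 135, 170 and 149 in Ash1l+/- (0.35, SE 0.10, edgeR adjusted p = 0.0134). Of 10 other ESCRT and deubiquitinating factors 1 was higher and 0 lower, the deubiquitinase Usp8 (0.29, SE 0.08, edgeR adjusted p = 0.0203). None of these 6 named genes was called with trends removed, where Rab27b read -0.02 and Tspan4 -0.25. Tspan7, the third lower gene of the tetraspanin list, fell by 0.23 (SE 0.07, edgeR adjusted p = 0.0296). It was also called lower with trends removed (-0.43, SE 0.06, edgeR adjusted p = 0.000307).

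Cell type markers were read beside these values. Sensory neuron markers were high in every library, with a summed level of 11250 to 11700 CPM in 5 libraries and 13070 in WT replicate 2. The defining neuronal gene Tubb3 read -0.02 (SE 0.07) in the 5 libraries. Of 10 sensory neuron markers 0 were higher and 2 lower. Marker calls are those of the 5 libraries, where 9.39% of all genes were higher and 10.4% lower. Of 6 satellite glia markers 4 were higher (Fabp7, Kcnj10, Slc1a3 and Cdh19). The sum of the 6, mostly Apoe, was 3597 and 3700 CPM in WT replicates 3 and 1 and 3111 to 3851 in Ash1l+/-. In WT replicate 2 it was 10650 CPM. Of 6 fibroblast markers 3 were lower, the collagens Col1a1, Col1a2 and Col3a1. The sum of the 6 was 838 and 846 CPM in WT replicates 3 and 1 and 665 to 748 in Ash1l+/-. In WT replicate 2 it was 581 CPM, below every Ash1l+/- library. Of 6 Schwann cell markers 1 was higher and 1 lower. Their sum was 5065 and 5245 CPM against 4352 to 5078, and 7250 in WT replicate 2. Of 5 erythrocyte markers 3 were lower, with sums of 77.2 and 93.2 CPM against 28.8 to 87.4, and 546 in WT replicate 2. The 7 skeletal muscle markers summed to 2.17 to 4.56 CPM in the 5 libraries and to 35.96 in WT replicate 2. Macrophage markers summed to 42.2 and 42.5 CPM in WT replicates 1 and 3, 110.9 in WT replicate 2 and 35.0 to 37.7 in Ash1l+/-. None of the 6 was called, and of 6 endothelial and mural markers 1 was higher. Of 4 tested neutrophil and mast cell markers 1 was lower. Of 4 tested central nervous system markers 1 was higher and 1 lower, and Mog and Olig1 were at or near 0. With trends removed, 2 sensory neuron markers were higher and 1 lower, where 2.63% of all genes were higher and 4.41% lower. Of the satellite glia markers only Kcnj10 was then called, higher, and 1 central nervous system marker was higher. The 3 collagens stayed lower, and 1 Schwann cell, 1 erythrocyte and 1 neutrophil and mast cell marker were lower. The part of these cell types in the members' differences was not tested.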

How the data were processed

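The titles of the samples gave the groups, 3 Ash1l+/- and 3 WT. Ganglia were snap frozen and their RNA taken up in Trizol, per the labels' protocols, and the NEBNext Ultra kit named there does not mark strand. The authors deposited raw read counts per gene and FPKM values. HISAT2 2.0.5, featureCounts 1.5.0-p3 and GRCm38 (mm10) are named in the submitters' processing notes, without settings. The deposited FPKM equal counts over gene length and a library size, 0.75 of the total for WT replicate 2 and between 1.02 and 1.04 of it otherwise, and served as an alternative scale. The totals were 19033437 (WT 1), 17648407 (WT 2), 18389787 (WT 3), 20545722 (Ash1l+/- 1), 17647095 (Ash1l+/- 2) and 17209294 (Ash1l+/- 3). Genes were followed by identifier, as 105 symbols recur.

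The main test was edgeR 4.0.16 (R 4.3.3), quasi-likelihood, on genes passing filterByExpr, with TMM factors and a genotype term; p-values were adjusted by Benjamini-Hochberg across all tested genes, with a threshold of 0.05. It was tested on simulated counts with known changes. These were larger than the differences called here, with no GC trend and no outlying library, so that test cannot judge the calls above. The same fit was made without WT replicate 2. To remove trends, loess curves (span 0.3; clipping at percentiles 1 and 99) of each library's deviation in log2 CPM over gene length and over GC of the longest GENCODE M21 transcript became an offset. Alternatives were RLE factors, library totals, no count filter, DESeq2 1.42.0, limma 3.58.1 (voom, voom with quality weights, and log2(FPKM + 1) of genes with FPKM of at least 1 in 3 libraries), a replicate block and leaving out each library. Exon sharing came from GENCODE M21, and promoters and microRNAs from RefSeq.

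The members, the lists of other genes and the use of 5 libraries were chosen with earlier results of these data known. Every member is named; values in each library were due for members past the threshold and for 11 members chosen for their role, and other pathway genes were named by smallest p, up to 10. Snf8 is given per library, and Ist1, Tspan3 and Tspan7 are named, because of their values.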

Additional observations from a re-analysis of the deposited data

How the results depend on the processing

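With all 6 libraries, 0 members were called under RLE factors, library totals, no count filter, DESeq2, limma-voom, limma on log2(FPKM + 1), the replicate block and trend removal. With library quality weights 15 were called (26.1% of genes), and leaving out 1 library gave 0 to 13, the 13 without WT replicate 2. Without WT replicate 2, 13 members were called under RLE factors (19.9% of all genes), no count filter (11.9%) and limma-voom (19.5%), 14 under library totals (19.7%) and 12 under DESeq2 (22.2% of genes with an adjusted p). Removing GC and length trends left 3 (7.04% of genes). Leaving out 1 more library gave 2 to 17, with 4.67% to 26.0% of genes.

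Among single members, removing trends turned the 5-library log2 fold change of Stam to -0.008, Vps37a to -0.023, Vps37c to 0.039, Flot1 to 0.079 and Flot2 to 0.021, none called, and that of Sdcbp to -0.228, called. Of 251 values of members given in full under the 5-library alternatives, 42 lost the call and 1 gained it in the same direction. Of 314 under the 6-library alternatives, 27 gained a call in the same direction. The cause of these changes was not tested beyond the alternatives named.

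Deviations of same-numbered samples from their group means had correlations of 0.001, -0.032 and 0.038. The WT mean includes the outlying WT replicate 2, so these values cannot decide whether the numbers pair the samples. With the replicate number as a block, 0 members were called in 6 libraries and 12 in 5 (3 higher, 9 lower; 24.3% of genes), where Chmp4c and Vps37c were not called and Ykt6 was. DESeq2 likewise called Ykt6 and not Vps37c, and gave Chmp4c no adjusted p. Chmp4c and Vps25 had 0 to 48 counts per library and Hgs 2 in all, so their values are imprecise; Vps25 and Hgs also share exons with other gene models, and the part of each was not tested.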
